A study of Homo sapiens with 17 samples.

Results

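The genes described here are 10 cyclins and cyclin-dependent kinases (CDKs) of the cell cycle, among 23368 genes in the count table. They are the D-type cyclins CCND1, CCND2 and CCND3 with the kinase CDK6, the E-type cyclins CCNE1 and CCNE2 with the kinase CDK2, and the mitotic set CCNA2, CCNB1 and CDK1. They were chosen by name for their role, and CDK6 because it has been reported as a transcript repressed by TDP43. All 10 were in the table and all 10 passed the low-count filter of every comparison.

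The libraries were made by acRIP-seq from poly(A) RNA of HEK293T, a line derived from human embryonic kidney, in which RNA carrying N4-acetylcytidine (ac4C) is captured with an antibody. Cells labelled WT, for which no control siRNA is named, gave 3 libraries of input RNA, 3 of anti-ac4C pull-down (IP) and 2 of pull-down with control immunoglobulin G (IgG). Cells labelled siTDP43, treated with siRNA against TDP43, the RNA-binding protein encoded by TARDBP, gave 3 libraries of each kind. The sources do not say that replicates came from separate cultures, so p-values measure the spread between these libraries, which may be technical. Transfection, loss of TDP43 and any batch or stock of cells cannot be told apart between the genotypes. Depth was highest in the inputs, with totals from 24542434 to 36583436 counts over both genotypes, and lowest in siTDP43 IgG, with 3013989 to 3436811. WT IgG had 9022250 to 9466855 counts, WT IP 19615316 to 21066215 and siTDP43 IP 8610070 to 15736165.

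Cyclins are regulatory subunits that rise and fall through the cell cycle, and CDKs are the kinases they switch on. D-type cyclins with CDK4 or CDK6 phosphorylate the retinoblastoma protein RB in G1, which frees E2F transcription factors; E-type cyclins with CDK2 act at the entry into S phase, cyclin A2 acts through S phase and G2, and cyclin B1 with CDK1 drives mitosis. TDP43 binds UG-rich RNA, and ac4C is written on RNA by the acetyltransferase NAT10.

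The siRNA strands are shown because they define the siTDP43 group, and the member sequences because UG-rich RNA is what TDP43 is known to bind. The study listed 2 siRNA duplexes against TDP43, and which of them was used for these libraries is not stated. The capitals in the sense strands mark the 19 bases that matched TARDBP coding sequence, at chr1:11073948-11073966 for siRNA 1 and chr1:11078873-11078891 for siRNA 2 (hg19, plus strand), and 0 of the 10 members held a full match to either.
siTDP43 siRNA 1 sense: GGCUGGUAGAAGGAAUUCUtt
siTDP43 siRNA 2 sense: GUCACAGCGACAUAUGAUAtt
The longest unbroken run of alternating T and G in the exons of each member was found on the transcribed strand. CDK6 held a run of 33 bases in its 3′ UTR, at chr7:92244011-92244043 on the minus strand, and the next longest runs were 8 bases, in CCND1 and CCND2. A run at least as long as that of CDK6 was found in 109 of 13642 genes (0.8%), and in 3.0% of the 370 genes whose exon length was within 20% of that of CDK6. Capitals mark the TG run in the windows below, of which the first is chr7:92244014-92244043 (minus strand), inside the CDK6 run, the second chr11:69467096-69467125 (plus strand) and the third chr12:4413750-4413779 (plus strand), all in 3′ UTRs.
CDK6: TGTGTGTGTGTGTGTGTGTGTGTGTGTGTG
CCND1: gctgtttttgtTGTGTGTGcagggagggca
CCND2: atactacattcGTGTGTGTctgcttttaaa
Counted with overlaps on the transcribed strand only, the 6-base motif TGTGTG occurred 20 times in the exons of CDK6 (1.7 per kb), where genes of like length had a median of 6. Most of the CDK6 matches overlapped one another in or beside the 33-base run, so they are not a feature separate from it. The motif occurred 5 times in CCND1, 3 times in CCND2 and once each in CCNB1, CCND3, CCNE1 and CDK1, and CCNA2, CCNE2 and CDK2 had 0 matches. Of all 13642 genes searched, 66.9% held it. The motif TGTGCG, which the study searched as a TDP43 motif, had 1 match among the members, in the CDK6 3′ UTR at chr7:92238094-92238123 on the minus strand.
CDK6, TGTGCG in capitals: tgcctgaaattaTGTGCGgccccgcgggct
That motif was in 31.5% of all genes and in 57.0% of the genes of CDK6 length. TCCCAGCT is the DNA form of a motif that the study gave for ac4C peaks. These letters were in the exons of 19.8% of all genes and of 0 members. A match is a match of letters only and was not tested as a binding site.

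Knockdown was first checked on TARDBP. TARDBP had 150, 157 and 151 CPM (counts relative to the TMM-scaled library size) in the WT inputs and 98.6, 102 and 106 CPM in the siTDP43 inputs. The groups did not overlap, and siTDP43 input held 67.2% of the WT level (log2 fold change -0.57, SE 0.0451, edgeR adjusted p = 6.55e-13), so much of the mRNA was still present. Over the alternatives of processing the log2 change was between -0.87 and -0.54. The study also examined the knockdown by RT-qPCR and western blot, while the libraries here hold no measure of TDP43 protein. Of 7 HEK293T markers, 6 had more than 3 counts in every input, but PAX2 did not. Their summed level was 1070 to 1110 CPM in WT input and 652 to 696 CPM in siTDP43 input, mostly through VIM, with mean levels of 788 and 262 CPM. The mean levels of NEFM (66.1 and 41.8 CPM) and KRT18 (122 and 83.6 CPM) were also lower in siTDP43, while those of NEFL (65.2 and 186 CPM) and LIN28B (30.3 and 58.9 CPM) were higher. CDH2 was also higher in siTDP43 input, with 42.0 to 46.0 CPM against 21.6 to 24.0 CPM in WT input. Of 7 markers of other cell types, PTPRC, HBB, PECAM1 and KRT5 had at most 3 counts in every input, while the fibroblast collagen gene COL1A1 was above that in every input, and the summed level of the list was 6.78 to 7.86 CPM in WT and 1.21 to 2.26 CPM in siTDP43, most of it from COL1A1 (means of 7.31 and 1.70 CPM). The markers thus differed between the genotypes in both directions, and their part in the changes below was not tested.

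The input comparison asked which of these mRNAs differed in abundance after the knockdown. Of the 10 members, 6 were higher and 4 lower in siTDP43 input at an adjusted p under 0.05, where 38.6% of the 14036 genes tested were higher and 40.6% lower, so a call in itself was common. CCNB1, CCNA2, CCND1 and CCNE2 rose more than 2-fold, CCND2 and CDK1 rose by less, CDK6 and CDK2 fell by less than 2-fold, and CCND3 and CCNE1 fell by more. Over the alternatives of processing, the lowest log2 changes of CCNA2 and CCNE2 were 0.91 and 0.81, under 2-fold. The members' median log2 change was 0.27, against -0.05 over all genes tested. The 3 libraries of each genotype did not overlap for any member. How many of all genes showed no such overlap, or passed 2-fold, was not counted, so neither is read as particular to the members. An exact two-sided permutation test of each member's CPM gave p = 0.1, the smallest that 3 libraries against 3 allow. In bulk RNA a different share of cells in a phase of the cycle cannot be told apart from a different RNA level per cell.

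**Figure D1:**
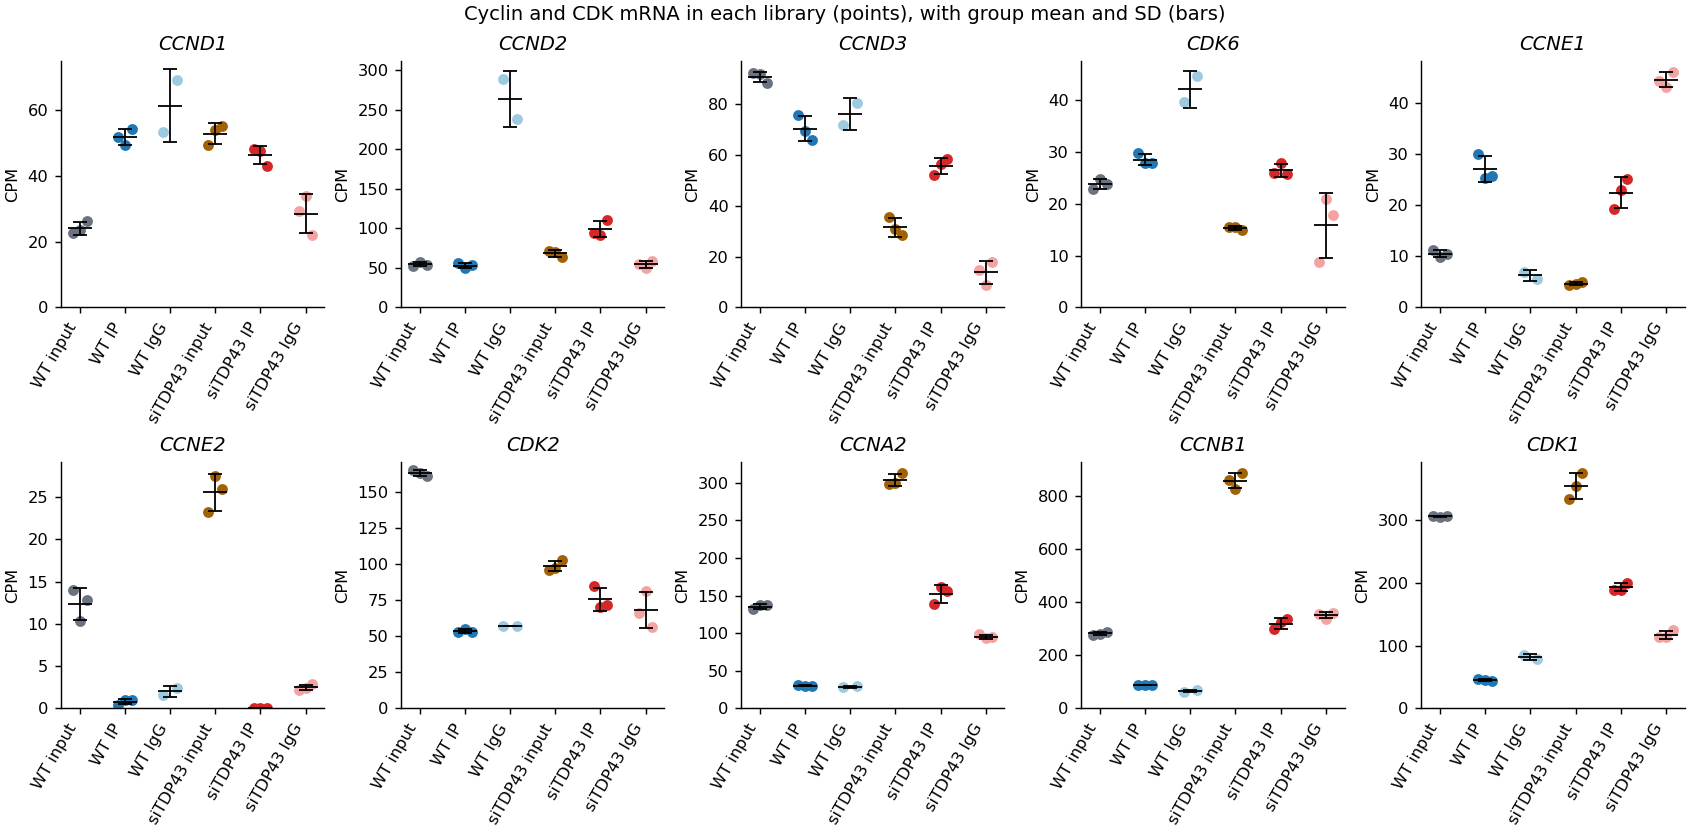
CPM of each member (1 panel per gene, linear axis from 0) in the 6 groups; points are libraries and bars the group mean and SD (3 libraries per group, 2 in WT IgG). CCNB1 and CCNA2 are highest in siTDP43 input, CCND2 stands out in WT IgG (239 and 289 CPM), and CCNE2 has no count in siTDP43 IP.

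The D-type cyclins, which carry growth signals to the cell cycle, changed in different directions. CCND1 (chromosome 11, 69455873 to 69469242, plus strand) had 22.5, 23.5 and 26.3 CPM in WT input and 49.3, 53.9 and 55.2 CPM in siTDP43 input. Every knockdown library was above every WT library, with a log2 fold change of 1.13 (SE 0.0716, edgeR adjusted p = 3.04e-15). CCND2 (chromosome 12, 4382902 to 4414522, plus strand) had 52.5, 57.2 and 54.1 CPM in WT input and 71.5, 70.1 and 63.6 CPM in siTDP43 input. Its rise was small but larger than the spread between libraries, at 0.33 on the log2 scale (SE 0.0582, edgeR adjusted p = 6.94e-06). CCND3 (chromosome 6, 41902671 to 42016610, minus strand) had 92.1, 91.7 and 88.5 CPM in WT input and 35.7, 30.8 and 28.3 CPM in siTDP43 input. Every knockdown library of CCND3 was below every WT library, with a log2 fold change of -1.51 (SE 0.0654, edgeR adjusted p = 2.07e-19). It is also the member with the highest exon GC content, 61.5%, and with a GC trend removed from each library its change was -0.86. Its fall was the largest of the members before that removal, but after it CCNE1 (-1.11) and CDK6 (-0.94) fell by more.

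CDK6, the kinase partner of the D-type cyclins (chromosome 7, 92234235 to 92465941, minus strand), was lower in the siTDP43 inputs. The reported repression by TDP43 was not tested here, nor was why CDK6 was lower. Transfection, loss of TDP43 and batch cannot be told apart in this comparison. CDK6 had 22.9, 24.9 and 23.9 CPM in WT input and 15.5, 15.6 and 15.0 CPM in siTDP43 input. The knockdown libraries lay close together and below every WT library, at 64.2% of the WT level (log2 fold change -0.64, SE 0.0864, edgeR adjusted p = 7.6e-08). Over the alternatives of processing run here its log2 change was between -0.94 and -0.61. CDK4, the other partner of the D-type cyclins, had 537 CPM in WT input and 554 CPM in siTDP43 input as means of 3 libraries, a log2 difference of 0.05 (edgeR adjusted p = 0.206). RB1, which encodes the substrate of these kinases, rose by 0.37 on the log2 scale (edgeR adjusted p = 0.000117), and CDKN1A, which encodes the CDK inhibitor p21, rose by 0.49 (edgeR adjusted p = 2.56e-08).

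The E-type cyclins moved in opposite directions and CDK2, their kinase, was lower. CCNE1 (chromosome 19, 30302901 to 30315215, plus strand) had 11.3, 9.82 and 10.5 CPM in WT input and 4.48, 4.51 and 5.03 CPM in siTDP43 input. Without overlap between the groups, it fell by 1.16 on the log2 scale (SE 0.138, edgeR adjusted p = 5.48e-09). CCNE2 (chromosome 8, 95892453 to 95907482, minus strand) had 14.0, 10.3 and 12.8 CPM in WT input and 23.2, 27.5 and 26.0 CPM in siTDP43 input. It rose by 1.06 on the log2 scale (SE 0.103, edgeR adjusted p = 8.55e-11), and by 0.81 to 1.15 over the alternatives of processing. CCNE2 shares 269 exon bases with INTS8 on the opposite strand, and no source says whether counting used strand, so reads of the pair cannot be separated. CDK2 (chromosome 12, 56360556 to 56366568, plus strand) had 165, 163 and 161 CPM in WT input and 96.1, 97.4 and 103 CPM in siTDP43 input. The difference was -0.72 on the log2 scale (SE 0.0442, edgeR adjusted p = 1.73e-15), far outside the spread of either group.

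Among the genes that act in S phase, G2 and mitosis, both cyclins rose by more than 2-fold and the kinase by much less. CCNB1 (chromosome 5, 68462837 to 68474070, plus strand) had 278, 282 and 290 CPM in WT input and 861, 829 and 886 CPM in siTDP43 input. This was the largest rise of the 10 members, with a log2 fold change of 1.60 (SE 0.038, edgeR adjusted p = 4.6e-26). CCNA2 (chromosome 4, 122737599 to 122745088, minus strand) had 132, 137 and 137 CPM in WT input and 298, 300 and 313 CPM in siTDP43 input. The log2 fold change of CCNA2 was 1.17 (SE 0.0408, edgeR adjusted p = 7.28e-22), and 254 of its exon bases overlap EXOSC9 on the opposite strand. With the GC trend removed, the rise of CCNA2 was 0.91, under 2-fold. CDK1 (chromosome 10, 62538089 to 62554610, plus strand) had 306, 305 and 306 CPM in WT input and 333, 354 and 375 CPM in siTDP43 input. Its log2 fold change of 0.22 (SE 0.041, edgeR adjusted p = 1.76e-05) was lost with the GC trend removed, at -0.01 (edgeR adjusted p = 0.811), and CDK1 has the lowest exon GC content of the members, 34.3%.

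**Figure D2:**
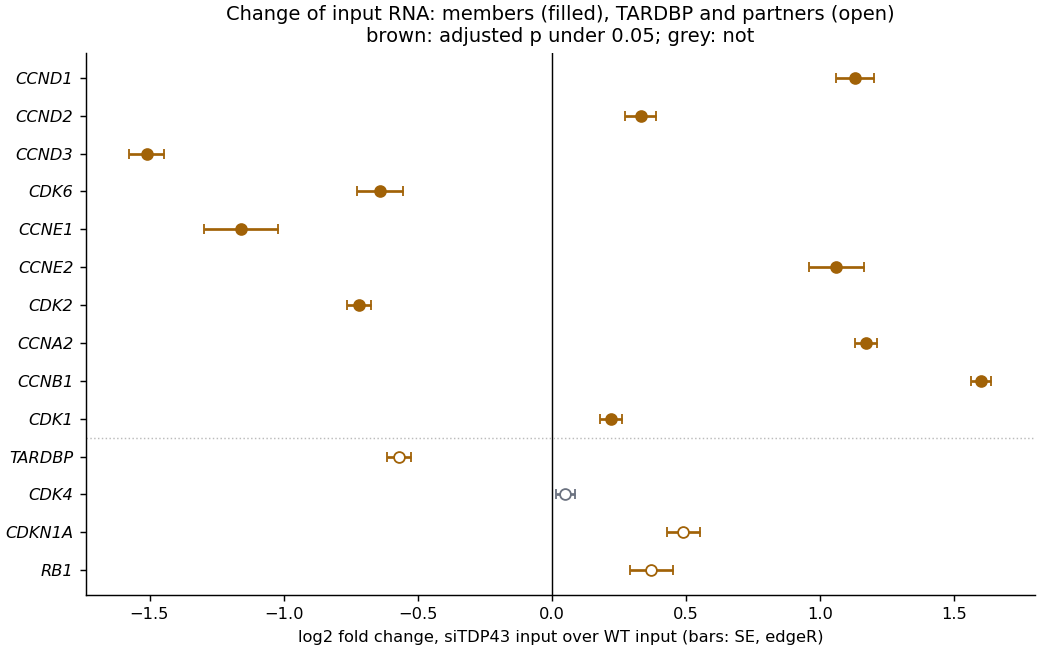
Log2 fold change of siTDP43 input over WT input (horizontal axis, bars are the SE derived from the edgeR F statistic) for the members (filled) and for TARDBP, CDK4, CDKN1A and RB1 (open). Cyclins of the same family lie on opposite sides of 0, as for CCND1 at 1.13 and CCND3 at -1.51.

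Per kilobase of exon, the members spanned a wide range of levels in WT input. CCNB1 (131 CPM per kb) and CDK1 (92.1 CPM per kb) led, followed by CDK2 at 71.1, CCNA2 at 48.3 and CCND3 at 37.5 CPM per kb. CCND2 (8.37), CCND1 (5.62), CCNE1 (5.41), CCNE2 (4.53) and CDK6 (2.04 CPM per kb) were lower. In siTDP43 input CCNA2 (108 CPM per kb) and CDK1 (107 CPM per kb) were nearly level, CCNB1 reached 396 CPM per kb, and CDK6 stayed lowest at 1.30 CPM per kb. CCNE1, at 2.40 CPM per kb, was below CCNE2, at 9.38 CPM per kb, in siTDP43 input, while in WT input the libraries of both overlapped per kilobase.

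The rest of the cell cycle machinery was described by lists of textbook genes. Of 88 tested genes in all lists, 40 were higher, 38 lower and 10 not past the threshold in siTDP43 input, with a median log2 change of 0.03. Among genes of mitosis 7 of 10 were higher and 2 lower (median 0.57), including the mitotic kinases AURKA (1.41) and BUB1 (1.68). Among replication genes 8 of 13 were higher and 4 lower (median 0.33), with MCM7, a subunit of the replicative helicase, at 1.17 and CDT1, which loads that helicase, at -2.50. These shares stand beside the 38.6% higher and 40.6% lower over all genes. A list of phosphatases and kinases that act on CDKs and of CKS subunits also held CCNH and MNAT1. Of its genes, 2 of 9 were higher and 7 lower (median -0.70), with CDC25A, an activating phosphatase, at -0.94 and PKMYT1, an inhibitory kinase, at -1.11. CCNH was in the list of other cyclins too, and was counted once in the total over all lists. Of the RB and E2F genes 5 of 13 were higher and 7 lower (median -0.33), and the activators E2F1 and E2F2 had log2 changes of -1.66 and -1.55.

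The remaining lists also held genes that rose and genes that fell. Of the CDK inhibitors 4 of 8 were higher and 4 lower (median -0.02), with the INK4 inhibitors CDKN2B at 1.26 and CDKN2D at -1.25. Of 15 other cyclins 7 were higher and 6 lower (median 0.06), with CCNI at -2.83 and CCNY at -1.99. Of 11 other CDKs tested 3 were higher and 6 lower (median -0.41), with the Mediator kinase CDK8 at -1.85 and CDK18 at -1.61. Of 10 genes of cyclin degradation 4 were higher and 3 lower (median 0.01), with CUL1, the scaffold of SCF ubiquitin ligases, at 1.69 and FZR1, an activator of the anaphase-promoting complex, at -1.23. The genes named with a log2 change in the 8 lists were picked as the 2 largest changes per list among those with an adjusted p under 0.05 in edgeR. They show the extremes of each list and not its typical gene.

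**Figure D3:**
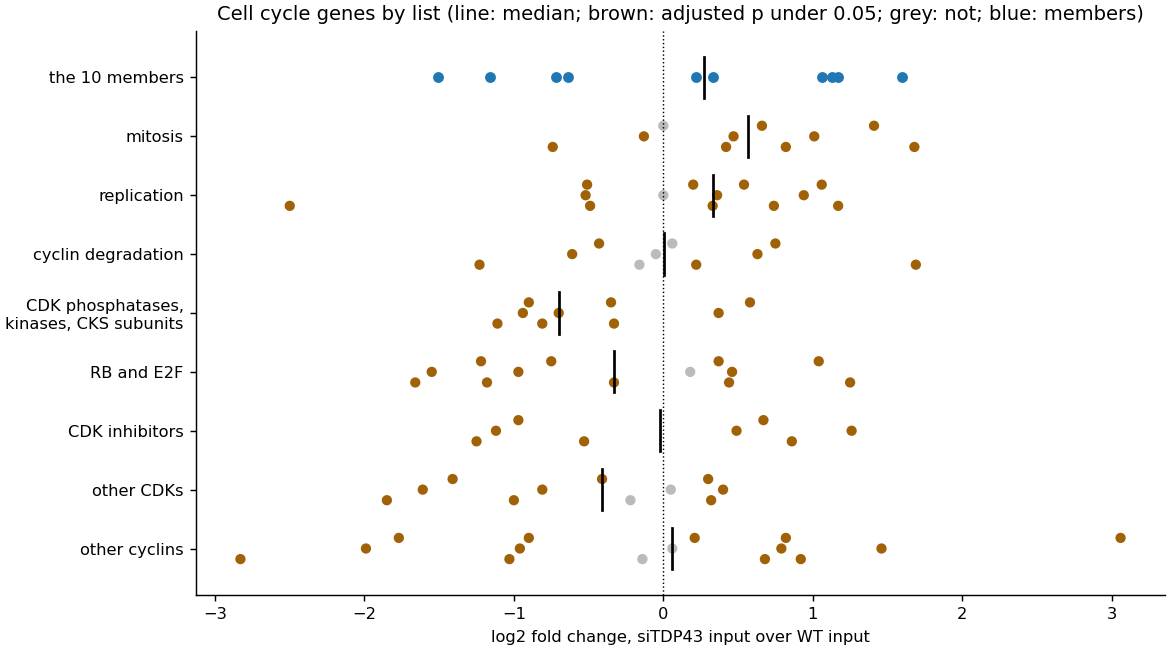
Log2 fold change of siTDP43 input over WT input for each gene of the 8 lists (points, staggered vertically for visibility) and the 10 members, with the median of each list as a line. Genes lie on both sides of 0 in every list, with list medians from -0.70 to 0.57.

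Pull-down was compared with both controls within each genotype, to ask which of these mRNAs were enriched with the anti-ac4C antibody. CCNE1 was the only member called above both controls in WT, each by more than 2-fold, and 0 members were in siTDP43. Over all genes tested, 2302 of 14751 (15.6%) were above both controls in WT and 1314 of 12746 (10.3%) in siTDP43.

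In WT, CCNE1 had 30.1, 25.4 and 25.8 CPM in IP, 11.3, 9.82 and 10.5 CPM in input, and 6.98 and 5.56 CPM in IgG. The 3 groups did not overlap, and the log2 enrichment was 1.37 over input (SE 0.117, edgeR adjusted p = 1.23e-10) and 2.09 over IgG (SE 0.169, edgeR adjusted p = 7.64e-11). CCND1 was the other member called above input, at 1.11 (SE 0.0908, edgeR adjusted p = 5.46e-11), with 51.8, 49.3 and 54.2 CPM in IP, but glmTreat, which tests against a change of 2-fold, gave it an adjusted p of 0.0775. It was not above IgG, which had 53.4 and 69.1 CPM and overlapped the IP libraries (log2 -0.26, edgeR adjusted p = 0.0247). Over input, 2 members were thus higher and 5 lower by more than 2-fold, where 30.2% of 14751 genes tested were higher and 27.3% lower. The lower ones were CCNE2 (log2 -3.90), CDK1 (-2.75), CCNA2 (-2.14), CCNB1 (-1.68) and CDK2 (-1.59). With the GC trend removed, CCND3 was also called lower, at -1.32 instead of -0.36.

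The WT control pull-down was itself far from input for 7 of the members. Over input, CCND1 (1.37) and CCND2 (2.30) were higher in IgG, and CCNE2 (-2.59), CCNA2 (-2.20), CCNB1 (-2.06), CDK1 (-1.87) and CDK2 (-1.48) were lower, where 24.4% of all genes were higher and 36.6% lower. The 5 members below input in IP were thus also below it in IgG, and both comparisons use the same input libraries. With the GC trend removed, CDK1 (-0.93) and CDK2 (-0.92) in IgG over input no longer passed 2-fold. CCND2 had 289 and 239 CPM in WT IgG, against 55.9, 49.7 and 53.5 CPM in WT IP and 52.5, 57.2 and 54.1 CPM in WT input. Its IP libraries overlapped the input and lay far below IgG, at -2.34 (SE 0.0784, edgeR adjusted p = 8.63e-18).

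Over IgG in WT, CCNE1 was the 1 member called higher, and CCND2 and CCNE2 were the 2 called lower, where 35.2% of all genes were higher and 17.8% lower. The CCNE2 call rested on few counts, 11, 24 and 23 in IP and 16 and 24 in IgG, and on 1 library. Its log2 value was -1.31 (edgeR adjusted p = 0.00441), and without WT IgG replicate 2 it was -0.94 (edgeR adjusted p = 0.0958). For the other 7 members the log2 difference from IgG was between -0.88 (CDK1) and 0.39 (CCNB1). Among these 7, CCND3 at -0.13 was called lower, at -1.17 (edgeR adjusted p = 1.05e-12), with the GC trend removed. CDK6 had 29.8, 28.0 and 27.9 CPM in WT IP, 22.9, 24.9 and 23.9 CPM in WT input and 39.6 and 44.7 CPM in WT IgG. The antibody libraries of CDK6 thus lay between input and control, at 0.26 over input (SE 0.0885, edgeR adjusted p = 0.00873) and -0.58 over IgG (SE 0.104, edgeR adjusted p = 2.33e-05), and neither passed 2-fold.

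**Figure D4:**
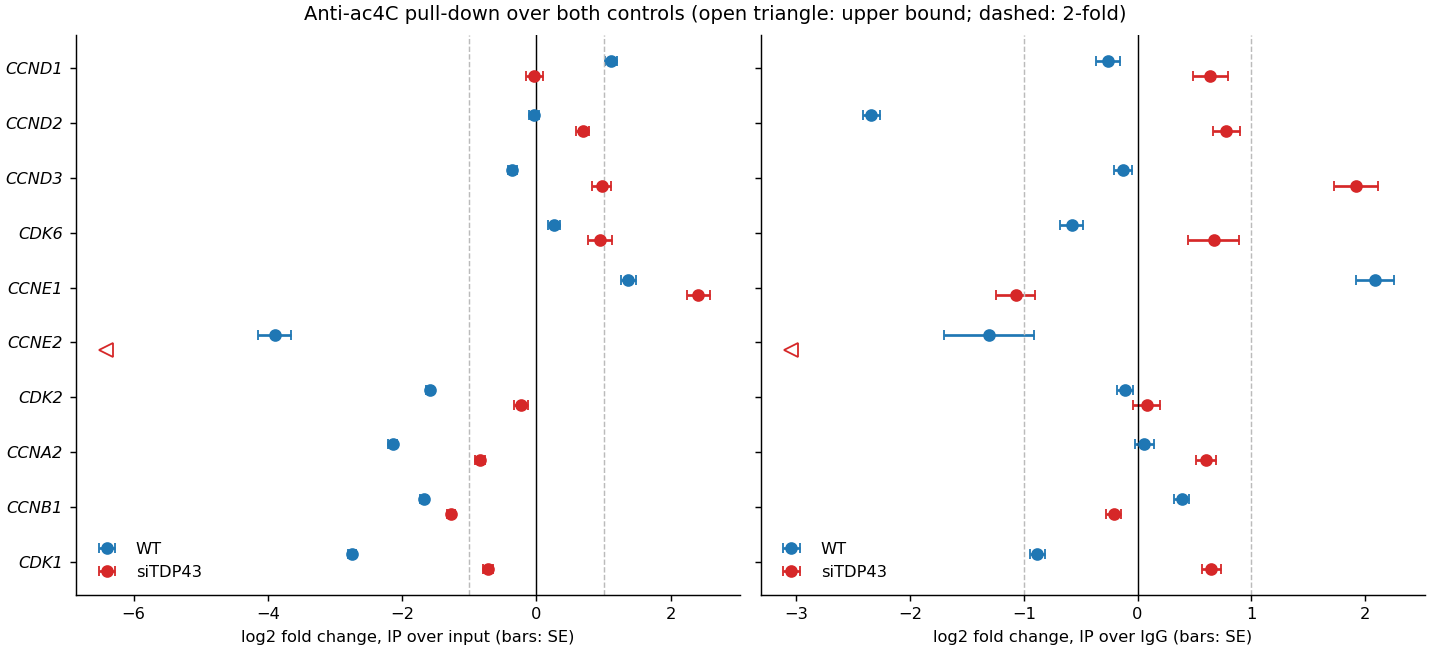
Log2 fold change of IP over input (left) and IP over IgG (right) for each member in WT (blue) and siTDP43 (red), with the SE as bars, dashed lines at 2-fold and open triangles for CCNE2 in siTDP43, whose value is an upper bound. CCNE1 lies right of both dashed lines in WT (1.37 and 2.09) but left of 0 against IgG in siTDP43 (-1.07).

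In siTDP43, CCNE1 was higher in IP than in input but lower than in IgG. It had 19.2, 23.0 and 25.2 CPM in IP, 4.48, 4.51 and 5.03 CPM in input, and 44.4, 43.3 and 46.2 CPM in IgG. The 3 groups did not overlap, with log2 values of 2.41 over input (SE 0.171, edgeR adjusted p = 2.08e-11), -1.07 over IgG (SE 0.172, edgeR adjusted p = 9.51e-06), and 3.48 for IgG over input (SE 0.183, edgeR adjusted p = 7.62e-14). The fall against IgG was near the 2-fold limit, at -0.95 without siTDP43 IP replicate 1 and -0.86 with scaling by total count. In siTDP43 IgG these levels rest on 121, 107 and 130 counts.

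CCNE2 had 0 counts in all 3 siTDP43 IP libraries, against 6, 6 and 8 counts in siTDP43 IgG and 736, 695 and 732 in siTDP43 input. Taking 3 counts per library as the floor for a count of 0, it was at least 85.2-fold lower in IP than in input and at least 8.30-fold lower than in IgG. If both mates of a read pair were counted, 3 counts stand for fewer fragments, and these bounds would be smaller. CCNB1 was the other member called lower over input, at -1.27 (SE 0.0643, edgeR adjusted p = 5.34e-14), and at -0.86 with the GC trend removed. In all, 1 member was higher and 2 lower in IP than in input, where 26.8% of 12746 genes tested were higher and 25.4% lower. Scaled by total count, 1 was higher and 4 lower, and the median of all genes moved from -0.09 to -0.43. CCND3 (0.97) and CDK6 (0.95) lay just under the 2-fold limit over input. Without siTDP43 input replicate 1 or siTDP43 IP replicate 1, CCND3 was 1.05 or 1.03 and passed it. With a mean of at least 50 counts both passed it, at 1.05 for CCND3 and 1.03 for CDK6. Over the alternatives CDK6 was between 0.61 and 1.38, the latter with the GC trend removed.

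CCND3 was the 1 member called higher in IP than in IgG after the knockdown. It had 52.2, 56.6 and 58.3 CPM in siTDP43 IP and 14.7, 8.9 and 17.8 CPM in siTDP43 IgG. The groups lay far apart, at 1.92 on the log2 scale (SE 0.191, edgeR adjusted p = 1.23e-08), on 40, 22 and 50 counts in IgG. CCNE1 and CCNE2 were the 2 called lower, where 34.0% of all genes were higher and 15.0% lower. Of IgG over input, 1 member was higher (CCNE1) and 4 lower (CCNE2, CCNA2, CDK1 and CCNB1, at -3.12, -1.44, -1.37 and -1.06), where 24.7% of all genes were higher and 41.0% lower. With the GC trend removed, CDK1 and CCNB1 in IgG over input turned to 0.31 and 0.17 and CCNA2 was -0.15 (edgeR adjusted p = 0.103), so these values depend on that choice.

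CDK6 had 25.9, 28.0 and 25.7 CPM in siTDP43 IP, 15.5, 15.6 and 15.0 CPM in siTDP43 input and 8.81, 21.0 and 17.8 CPM in siTDP43 IgG. IP was above every input and every IgG library, at 0.95 over input (SE 0.178, edgeR adjusted p = 5.26e-05) and 0.67 over IgG (SE 0.223, edgeR adjusted p = 0.00973). The difference from IgG rested on 24, 52 and 50 counts in IgG. With the GC trend removed it was -0.30 (edgeR adjusted p = 0.234), and the difference from input was 1.38 (edgeR adjusted p = 3.4e-07). Ordered by mean level over the 6 groups, CDK6 was highest in WT IgG (42.1 CPM), followed by WT IP (28.6), siTDP43 IP (26.5), WT input (23.9), siTDP43 IgG (15.9) and siTDP43 input (15.3 CPM). The libraries of WT IP and siTDP43 IP overlapped, as did those of siTDP43 IgG and siTDP43 input, and the other neighbours did not. Among 10141 genes with a mean of at least 100 counts, those whose log2 CPM followed CDK6 most closely over the 17 libraries were CNNM2 (Pearson r = 0.968), CDYL (0.957) and REST (0.956), as a description of libraries that share group, preparation and depth.

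The other members also held the same order of groups only in part. CCNA2 and CCNB1 were highest in siTDP43 input and lowest in WT IgG (28.8 and 66.5 CPM), with no overlap between neighbours in the order. CDK1 was highest in siTDP43 input (354 CPM) and lowest in WT IP (45.1 CPM), also without overlap between neighbours. CDK2 and CCND3 were highest in WT input (163 and 90.8 CPM), and CCND3 was lowest in siTDP43 IgG (13.8 CPM). For CCND1, the 3 highest groups, WT IgG (61.3), siTDP43 input (52.8) and WT IP (51.8 CPM), overlapped their neighbours. For CCND2, WT IgG (264 CPM) stood above siTDP43 IP (99.0 CPM), and the 3 lowest groups, WT input (54.6), siTDP43 IgG (54.6) and WT IP (53.0 CPM), overlapped.

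Whether enrichment differed between the genotypes was tested as an interaction over all 17 libraries. The change of IP over input, siTDP43 minus WT, was higher for 8 members and lower for 2 (CCND1 and CCNE2), where 31.5% of 15165 genes tested were higher and 36.3% lower, and scaled by total count 5 were higher. Measured against IgG instead, 6 members were higher and 3 lower (CCNB1, CCNE1 and CCNE2), where 34.9% were higher and 25.9% lower. The members' medians were 0.73 over input and 0.77 over IgG, against -0.19 and 0.24 over all genes. Over IgG, the change was 3.17 for CCND2 (SE 0.143, edgeR adjusted p = 1.7e-20) and -3.11 for CCNE1 (SE 0.251, edgeR adjusted p = 1.43e-13). CCND2 in IgG was 289 and 239 CPM in WT and 54.7, 50.2 and 59.1 CPM in siTDP43, and CCNE1 in IgG was 6.98 and 5.56 CPM in WT and 44.4, 43.3 and 46.2 CPM in siTDP43. For both of them the IP libraries of the genotypes were closer than the IgG libraries. The changes of CDK6 were 0.53 over input (SE 0.188, edgeR adjusted p = 0.0123) and 1.31 over IgG (SE 0.238, edgeR adjusted p = 9.07e-06), but 0.24 over input with total count scaling and 0.27 over IgG with the GC trend removed, where the adjusted p was 0.28 and 0.363. With both controls the interaction shares the IP libraries, so the changes over input and over IgG are not independent.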

How the data were processed

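The 10 genes and the lists were chosen with earlier results of these data known. Per the labels and the study's methods, poly(A) RNA went through Smart-seq2 with oligo(dT) priming and no molecular identifiers, and the authors trimmed reads with Trim Galore 0.6.7, aligned them to hg19 with STAR 2.7.10a and counted uniquely mapped reads per gene with featureCounts 2.0.2. The GEO processing notes list the mouse build mm10, but the coordinates in the table are human. The deposited values are raw counts. Annotation release, strand and pair settings are not given in the sources used here, and 81.3 to 95.9% of counts from 1 to 20 were even, so both mates of a read pair were probably counted. The authors added an acetylated spike-in probe, which was not analysed here, and enrichment is therefore relative within each library.

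For 17 libraries (groups from the labels), edgeR 4.0.16 was run in R 4.3.3 on the counts (quasi-likelihood F test, two-sided, TMM, filterByExpr minimum count 10), with Benjamini-Hochberg adjustment over all genes tested. Inputs were fitted alone, enrichment within each genotype, and interactions over all libraries. Calls needed an adjusted p under 0.05, and for enrichment also a fold change above 2. CPM were computed on TMM library sizes. Alternatives were DESeq2 1.42.0, its size factors, total count scaling, no filter or a mean of at least 50 counts, halved counts, removal of a GC trend, glmTreat, 1 fit over all libraries, the replicate block and leaving out each library. Named outside the 10 members were TARDBP, CDK4, CDKN1A, RB1, the 2 genes per list with the largest change among those with an adjusted p under 0.05 and a mean of at least 100 counts, and the 3 genes most like CDK6. Exon positions came from the table and regions from GENCODE v44lift37. No library duplicated another (chi-square per degree of freedom 3.26 to 9.43 between replicates). Standard errors are the absolute log2 fold change divided by the square root of the edgeR F statistic. They reflect the spread between libraries as moderated across genes. The floor of 3 counts covers counting error only, per count and not per read pair.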

Additional observations from a re-analysis of the deposited data

Results flagged for a closer look

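The effect of the knockdown on enrichment was tested for each member as the difference of 2 log2 fold changes, siTDP43 minus WT (edgeR interaction term), and 19 of the 20 tests had an adjusted p under 0.05. Such a difference was common: of all 15165 genes tested, the change over input was called higher in 31.5% and lower in 36.3%. For the change over IgG these shares were 34.9% and 25.9%. The interaction was fitted over all 17 libraries, and the log2 values within a genotype in separate fits with their own scaling. Subtracting those values therefore does not give exactly the differences printed here. Of IP over input, the difference was 1.88 for CDK1, 1.22 for CDK2, 1.18 for CCND3, 1.15 for CCNA2, 0.89 for CCNE1, 0.57 for CCND2, 0.53 for CDK6 and 0.26 for CCNB1, and it was -1.29 for CCND1. CCNE2 had no count in siTDP43 IP, and its difference was at most -2.49, a bound against 3 counts per library. CCND1 had log2 values over input of 1.11 in WT and -0.03 in siTDP43. Its mean level was 24.1 and 52.8 CPM in the inputs but 51.8 and 46.3 CPM in IP, so the input differed more than the pull-down. The same held for CCND3, with 90.8 and 31.6 CPM in the inputs and 70.3 and 55.7 CPM in IP. CDK1 (-2.75 and -0.72), CCNA2 (-2.14 and -0.84) and CDK2 (-1.59 and -0.23) were nearer to input in siTDP43. Their IgG libraries were nearer to input there too. The log2 values of IgG over input in WT and siTDP43 were -1.87 and -1.37 for CDK1, -2.20 and -1.44 for CCNA2, and -1.48 and -0.31 for CDK2. The change over input is thus not particular to the anti-ac4C antibody for these genes.

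Of IP over IgG, the difference was 3.17 for CCND2, 2.10 for CCND3, 1.58 for CDK1, 1.31 for CDK6, 0.95 for CCND1 and 0.59 for CCNA2, and it was -0.54 for CCNB1 and -3.11 for CCNE1. For CCNE2 it was at most -1.76. CDK2 had a difference of 0.25 (edgeR adjusted p = 0.148). For CCND2 (-2.34 in WT, 0.78 in siTDP43) and CCNE1 (2.09 in WT, -1.07 in siTDP43) the value turned sign between the genotypes. Library depth differed with the groups, from 9022250 counts upward in WT IgG to at most 3436811 in siTDP43 IgG, and its part in these differences was not tested.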

How the results depend on the processing

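Of 1475 values of the members and TARDBP under the alternatives, 1412 kept their direction and their side of the threshold, 14 no longer passed it, 22 newly passed it and 27 changed sign. Removal of the GC trend accounted for 27 of those that did not keep both, and leaving out 1 library for 3 of the changes of sign. The cause of these changes was not tested. Fitted with a replicate block, all 91 results stayed on their side of the threshold (CDK6 in the inputs -0.64), although same-numbered libraries did not deviate together (residual correlations -0.027 to 0.083 for same and -0.08 to 0.056 for different numbers).

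Counts of members called that moved by more than 1.5 times, and those in the inputs and in WT IP over input that moved by less, were as follows. Shares of all genes called were not computed for these settings, so the counts describe the members only. A 2-fold limit left 4 members higher and 2 lower in the inputs. With glmTreat, 1 member was higher in WT IP over input, 1 lower in WT IP over IgG and 1 lower in siTDP43 IP over IgG. With the GC trend removed, 5 were higher in the inputs, 6 lower in WT IP over input, 3 lower in WT IgG over input, 2 higher and 1 lower in siTDP43 IP over input, and 2 higher and 2 lower in siTDP43 IgG over input. With a mean of at least 50 counts, 3 were higher in siTDP43 IP over input. With total count scaling, 4 were lower in siTDP43 IP over input, 1 lower in siTDP43 IP over IgG and 5 higher in the change over input. Without 1 library, the counts were 1 to 2 lower in WT IP over IgG, 1 to 2 higher in siTDP43 IP over input and 1 to 2 lower in siTDP43 IP over IgG.

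Changes of sign with the GC trend removed were CDK1 in the inputs (-0.01), CCND2 in WT IP over input (0.29), CCNA2 in WT IP over IgG (-0.06), CCND1 in siTDP43 IP over input (0.08), and in siTDP43 IP over IgG CCNA2 (-0.27), CDK1 (-0.49), CDK2 (-0.60) and CDK6 (-0.30). In siTDP43 IgG over input they were CCNB1 (0.17), CCND1 (0.07), CCND2 (0.97), CDK1 (0.31) and CDK2 (0.52), and in the change over IgG CCNA2 (-0.24) and CDK2 (-0.04). With total count scaling they were CCND2 in WT IP over input (0.07), CCND3 (0.00) and CDK2 (0.02) in WT IP over IgG, CCNB1 in siTDP43 IP over IgG (0.01), CDK6 in siTDP43 IgG over input (-0.28) and CCNB1 in the change over input (-0.03). With a mean of at least 50 counts they were CCND2 in WT IP over input (0.03), CCND1 in siTDP43 IP over input (0.05) and CCND2 in siTDP43 IgG over input (0.03). Without 1 library they were CCND2 in WT IP over input (range -0.07 to 0.01), CCND1 in siTDP43 IP over input (-0.09 to 0.02) and CDK2 in siTDP43 IP over IgG (-0.04 to 0.23). The change of CDK2 over IgG newly passed the threshold without siTDP43 IgG replicate 2 (0.40). Where a WT IgG library was left out, the remaining 1 was assumed to vary like the other groups. The siTDP43 IgG libraries limited precision most, since 3 counts there were 1.07 to 1.21 CPM.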
